A study of Mus musculus with 2 samples.

Results

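Mir132 and Mir212 are 2 microRNA (miRNA) genes that lie side by side on mouse chromosome 11 and are made from 1 transcript. They were taken by gene name from the 2202 miRNA genes counted in each library, so 2 of 2202 genes are described here, and both had counts in both libraries. The libraries are microRNA sequencing of total RNA, size-selected below 30 bases per the labels, from the hippocampus (labelled as a layer of hippocampus) of male B6CASTF1/J mice aged 25 days. Such mice are the F1 offspring of a cross between 2 inbred strains, C57BL/6J and CAST/EiJ. The 2 libraries, replicate 2 and replicate 1, form 1 group with no treatment, no mutation and no control tissue. Their biosamples are separate but the labels name the same donor entry for both, so the spread between these samples may be technical. The p-values here cover counting error only and do not measure that spread.

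A miRNA is cut from a hairpin precursor and guides Argonaute proteins to messenger RNAs that pair with its seed, the bases near its 5′ end. In neurons the Mir132 and Mir212 transcript is induced through CREB, a transcription factor that is phosphorylated when synaptic activity or neurotrophins raise calcium and kinase signalling. In the rodent hippocampus miR-132 is known to promote the growth of dendrites and spines. The arm called 3p is regarded as the main product of both genes.

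The mature sequences come first because they tell which reads the genes can share and which targets they can pair with. The sequences are those of RefSeq on GRCm38.p6, the assembly also called mm10, written 5′ to 3′ with the seed (bases 2 to 8) in capitals, and both genes matched that table.
mmu-miR-132-3p: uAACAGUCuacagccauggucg
mmu-miR-212-3p: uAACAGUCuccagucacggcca
mmu-miR-132-5p: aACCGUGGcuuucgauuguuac
mmu-miR-212-5p: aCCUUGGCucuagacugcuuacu
The 3p arms have the same seed, and among 1679 mature mouse miRNAs in the table only these 2 carry it. They are identical from base 1 to base 9 and over 17 of 22 bases in all (77.3%). Counted from 1 at the 5′ end, the 5 differences of miR-212-3p from miR-132-3p are A10C, C14U, U17C, U20C and G22A. The 5p arms have different seeds, and no other mature miRNA in the table shares either one.

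The hairpins are shown to place the arms, which are in capitals.
Mir132: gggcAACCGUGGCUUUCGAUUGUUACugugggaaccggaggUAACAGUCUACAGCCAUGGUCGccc
Mir212: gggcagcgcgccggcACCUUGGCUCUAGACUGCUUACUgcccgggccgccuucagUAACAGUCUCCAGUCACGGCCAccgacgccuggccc
Mir132 (ENSMUSG00000065537.2) lies at chr11:75173682-75173747 and Mir212 (ENSMUSG00000065590.1) at chr11:75173388-75173478, both on the plus strand of mm10. They sit in intron 1 of the noncoding gene 1700016P03Rik, which has 3 exons and runs along the same strand. Mir212 comes first in the direction of transcription, 790 bases after exon 1. Mir132 follows after a gap of 203 bases and ends 230 bases before exon 2.

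As RNA the hairpins differ from each other. The Mir132 hairpin has 66 bases and 57.6% G or C, and its predicted minimum free energy was -37.2 kcal/mol. The Mir212 hairpin has 91 bases and 69.2% G or C, with a predicted energy of -41.5 kcal/mol. A gene was called detected when each library held 10 or more of its counts. Of the 445 detected genes, 95.3% had a lower G and C content than Mir212 and 69.2% a lower one than Mir132. Per base, the predicted fold of Mir132 was more stable than that of 91.9% of them and the fold of Mir212 than that of 61.3%. The annotated Mir132 hairpin is short, as the median detected hairpin had 82 bases and 17.1% were shorter than Mir132. Its whole energy was near the median of -35 kcal/mol. The part of the annotated length in the value per base was not tested. These are properties of the annotated sequences, not measurements.

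Both genes share little sequence with other miRNA genes. The longest exact stretch that Mir132 shared with another miRNA gene on either strand was 11 bases, and that of Mir212 was 12 bases. With each other they shared 10 bases. Neither gene was among the 1087 that share 20 bases with a miRNA gene at another place of the annotation. Stretches shared with the rest of the genome were not checked. Reads with more than 1 place of alignment are in no gene count, and they were 43.2% of reads in replicate 2 and 43.6% in replicate 1. The count per gene does not separate the 3p from the 5p arm.

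The depth was 5871233 counts on the strand of a miRNA gene in replicate 2 and 5183641 in replicate 1. The neuronal marker list had 13 of 16 genes detected, summing in replicate 2 to 21056 CPM, which is counts per 1000000 counts assigned to genes, and to 22772 CPM in replicate 1. Its defining Mir124a genes were near 0, with the highest, Mir124a-1, at 12 counts in replicate 2 and 16 in replicate 1. The Mir124a copies share 32 bases. The oligodendrocyte genes Mir219a-2 and Mir338 summed to 6667 and 5248 CPM, the endothelial Mir126a had 5849 and 5300 CPM, and 3 leukocyte genes summed to 992 and 1237 CPM, in replicate 2 and replicate 1. Most of the leukocyte sum was Mir150, with 966 CPM in replicate 2 and 1183 CPM in replicate 1, whereas Mir223 had 3.58 and 6.56 CPM. Lists of red blood cell, liver, muscle and hindbrain genes summed to between 20.4 and 142 CPM in each library.

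Mir132 was among the most abundant assigned miRNAs of the hippocampus, whereas Mir212, from the same transcript, was far lower. Mir132 had 114855 counts in replicate 2 and 76038 counts in replicate 1. This is 19562 CPM in replicate 2, with an exact 95% interval of 19451 to 19675 CPM that covers counting error only. In replicate 1 it is 14669 CPM (14566 to 14773). Mir132 thus accounted for 1.96% of gene-assigned counts in replicate 2 and 1.47% in replicate 1. With the reads of more than 1 alignment place added to the total, its mean level was 7875 CPM, against 17116 CPM without them. It ranked 12 in replicate 2 and 15 in replicate 1, and 96.9% of detected genes had a lower mean.

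Mir212 had 2645 counts in replicate 2 and 2556 in replicate 1. Its level was 451 CPM in replicate 2 (433 to 468) and 493 CPM in replicate 1 (474 to 513). It ranked 137 in replicate 2 and 129 in replicate 1, above 69.7% of detected genes by its mean of 472 ± 30.1 CPM (SD, n = 2). Against the median detected gene of the same library, Mir132 was 338-fold higher in replicate 2 and 318-fold in replicate 1. Mir212 was 7.78-fold higher in replicate 2 and 10.7-fold in replicate 1. Both members therefore lay above the middle of the detected genes.

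**Figure D1:**
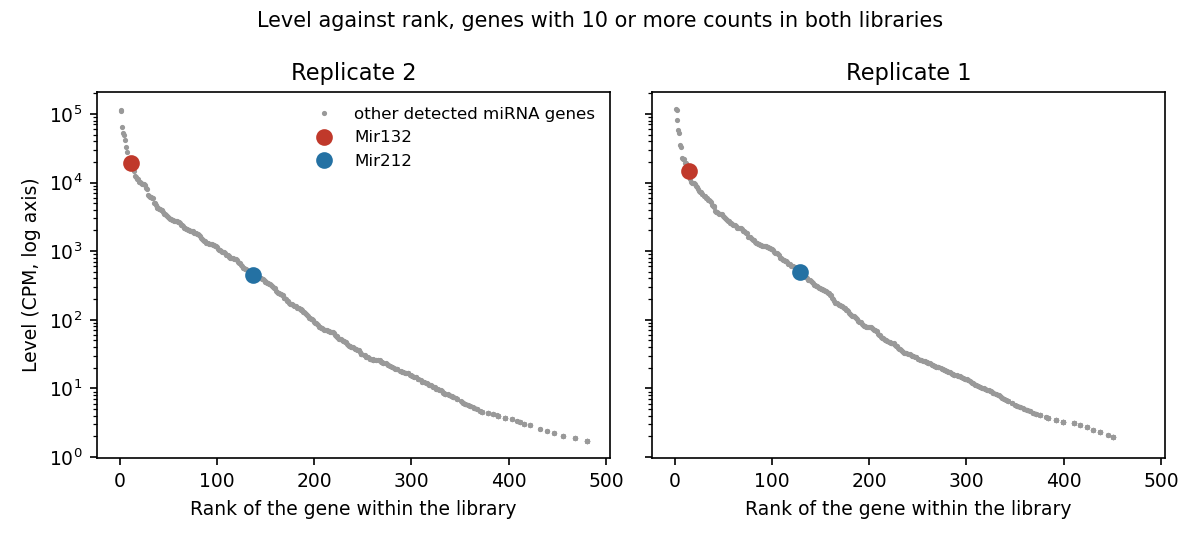
Level in CPM (log axis) against rank within the library for genes with at least 10 counts in both libraries, with replicate 2 on the left and replicate 1 on the right. Mir132 (red) sits at 19562 and 14669 CPM on the steep upper end of the curve, and Mir212 (blue) at 451 and 493 CPM further down.

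The place of Mir132 in the order of genes was not fixed to a single rank by these libraries. The order is also one of assigned counts, without the reads of more than 1 alignment place. The place of genes with copies elsewhere is therefore uncertain. By its mean of 17116 ± 3460 CPM (SD, n = 2) Mir132 ranked 14. Mir487b, ranked 13, had 17603 CPM in replicate 2 and 19201 CPM in replicate 1, below Mir132 in replicate 2 and above it in replicate 1. Mir433, ranked 12, was above Mir132 in both libraries, with 20125 CPM in replicate 2 and 18035 CPM in replicate 1. Mir382, ranked 15, was below it in both libraries, with 14580 and 9840 CPM. Mir487b, Mir433 and Mir382 belong to the imprinted Dlk1-Dio3 domain on chromosome 12. Mir23b, ranked 11, and Mir99b, ranked 16, lie on other chromosomes. Like Mir487b, both were below Mir132 in replicate 2 (16032 and 4319 CPM) and above it in replicate 1 (22183 and 19048 CPM).

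By distance on the log2(CPM + 1) scale over the 2 libraries, the 4 genes nearest to Mir132 were Mir433, Mir487b, Mir770 and Mir23b, at distances of 0.30 to 0.66. All 4 had a lower log2 ratio between the libraries than Mir132, from -0.47 to 0.16. Around Mir212 genes lay closer together. Its nearest were Mir181a-1, Mir669c, Mir700 and Mir34c, at distances of 0.07 to 0.31. Mir181a-1, a miRNA of lymphocytes and neurons that ranks next below Mir212, had 440 CPM in replicate 2 and 472 CPM in replicate 1 and was below it in both. Mir7080, next above, had 545 and 419 CPM and stood on opposite sides of Mir212 in the 2 libraries.

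Within each library Mir132 exceeded Mir212 by more than 1 order of magnitude, a comparison that needs no scaling between libraries. There were 43.4 Mir132 counts per Mir212 count in replicate 2, with an exact 95% interval of 41.8 to 45.1. The same ratio was 29.7 in replicate 1 (28.6 to 31.0). The intervals do not overlap, and the mean ratio was 36.6 ± 9.67 (SD, n = 2). Mir212 therefore made up 2.25% of the counts of the pair in replicate 2 (2.17 to 2.34) and 3.25% in replicate 1 (3.13 to 3.38). Together both genes held 2.00% of gene-assigned counts in replicate 2 and 1.52% in replicate 1. Of the counts from genes with the shared 3p seed, 97.7% in replicate 2 and 96.7% in replicate 1 were thus on Mir132, with the arms not told apart. A ratio of counts between 2 miRNAs is not a ratio of molecules.

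How does this ratio compare with that of other neighbouring miRNA genes? There were 63 other pairs of neighbouring detected genes on the same strand within 1000 bases of each other. Their median ratio of the higher to the lower gene was 6.16-fold, as a geometric mean over the libraries. The ratio of Mir132 to Mir212 was 35.9-fold on that scale, larger than in 53 of the 63 pairs (84.1%). The next pair above was Mir329 over Mir758, from the imprinted cluster on chromosome 12, at 38.8-fold. The next below was Mir411 over Mir299a, from the same cluster, at 33.8-fold. The widest was Mir487b over Mir539, at 254-fold. Some pairs with wide ratios hold genes with near-identical copies, such as Mir23a over Mir27a at 68.5-fold. The part of the copies in these ratios was not tested. Among the 37 pairs in which neither gene shares 20 bases with another place, a restriction chosen after seeing the data, Mir132 over Mir212 was wider than 34. The higher gene was the downstream one here, as it was in 30 of the 63 other pairs (47.6%). Pairs in clusters of 3 or more genes share members, so the pairs are not independent.

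**Figure D2:**
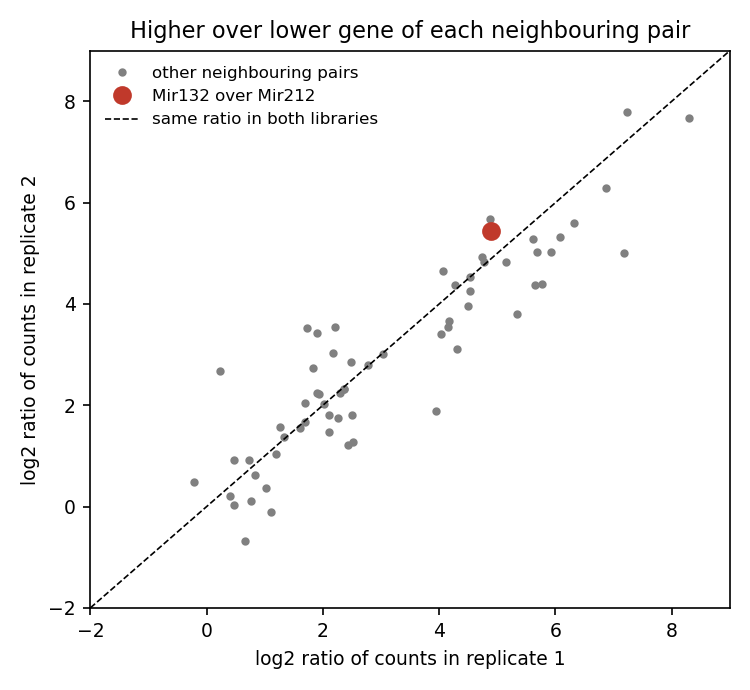
Each point is a pair of neighbouring detected miRNA genes on the same strand within 1000 bases, with the log2 ratio of counts of its higher over its lower gene in replicate 1 (x axis) and replicate 2 (y axis), and the dashed line marks equal ratios. Mir132 over Mir212 (red) lies at 4.89 and 5.44, above the line and toward the upper end of the pairs.

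The libraries differed in opposite directions for Mir132 and Mir212, and which of them differed more depended on the scaling. Mir132 was 1.33-fold higher in replicate 2 than in replicate 1 (95% exact interval 1.32 to 1.35), a log2 ratio of 0.42. The counts of each gene were set against the totals by an exact binomial test, with Benjamini-Hochberg adjustment over 472 genes, and for Mir132 the adjusted p was 0 to the precision of the software. Mir212 was lower in replicate 2, at 0.914-fold (0.865 to 0.965), a log2 ratio of -0.13 with an adjusted p of 0.00229 in the same exact binomial test. Both members were called, but so were 59.7% of all genes tested, with 39.4% higher and 20.3% lower in replicate 2. That is 186 genes higher and 96 lower, a split that became 141 and 137 with TMM scaling, which takes a trimmed mean over genes. When only the 291 genes averaging 100 or more counts were tested, 242 were called. The test compares 2 libraries and counts reads as independent molecules, and it leaves out the spread between animals. A call here does not show a difference beyond that spread.

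Set against the other genes, neither difference was wide. Of the 291 genes that averaged 100 or more counts, 57.0% had a smaller absolute log2 ratio than Mir132 and 19.9% a smaller one than Mir212, and their median absolute log2 ratio was 0.34. The median log2 ratio of these genes was 0.17, not 0. Relative to it Mir132 stood at 0.24 and Mir212 at -0.30, so that Mir212 was then the farther of the pair. By distance from that median, 38.8% of the 291 genes lay closer than Mir132 and 47.8% closer than Mir212. TMM scaling moved the median over the 472 genes tested by -0.15, and the members' log2 ratios were then 0.24 and -0.30 as well, with the same directions. The summed neuronal marker list went the other way from Mir132, as given above, and the oligodendrocyte sum went the same way. Of the neuronal genes called with scaling to the gene-assigned total, Mir137 alone was higher in replicate 2 (log2 ratio 0.53). Mir138-1 and Mir138-2 (-0.42 and -0.60), Mir129-1 and Mir129-2 (-0.55 and -0.17) were lower. Also lower were Mir128-1 and Mir128-2 (-0.04 and -0.09), Mir218-2 (-0.46) and Mir9-3 (-0.67). The other neuronal genes were not called or not tested. The part of the cell makeup in the result was not tested. In tissue, fewer cells of a type and less RNA per cell cannot be told apart.

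**Figure D3:**
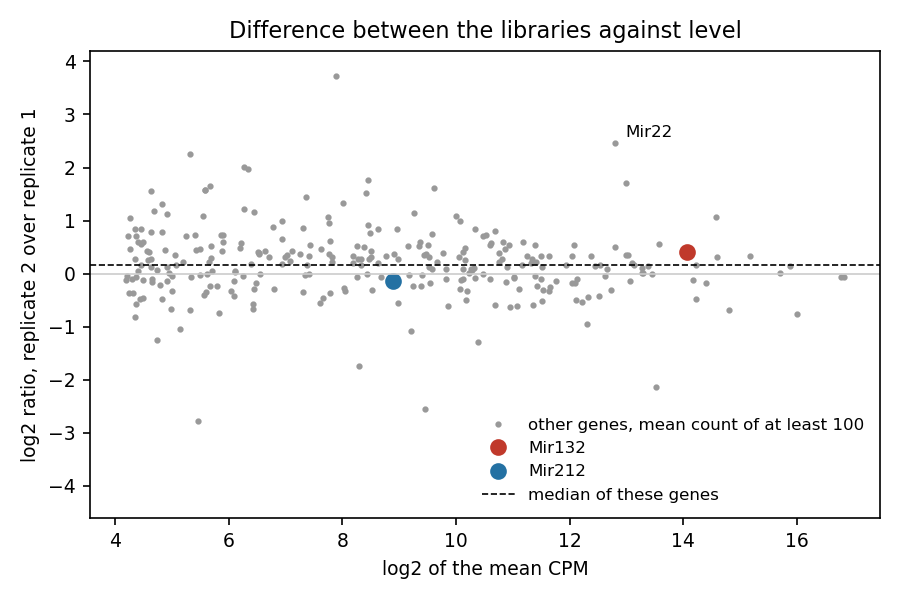
The log2 ratio of replicate 2 over replicate 1 (y axis) against log2 of the mean CPM (x axis) for the 291 genes that averaged 100 or more counts. Mir132 (red) lies at 0.42 and Mir212 (blue) at -0.13, on opposite sides of the dashed median of 0.17 and within the cloud of other genes, whereas Mir22 lies at 2.46.

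As both genes are made from 1 transcript, the difference between the libraries can also be given as a shift in their ratio. The log2 ratio of Mir132 over Mir212 was 0.55 higher in replicate 2 than in replicate 1, which is 1.46-fold. In the 63 other neighbouring pairs the median absolute shift was 0.56, and 31 pairs shifted less than this one. The shift of the pair was thus close to that of the middle pair.

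No read of either gene was counted on the opposite strand. For Mir132 the 0 opposite-strand counts allow a share of up to 0.00261% of its counts in replicate 2 and 0.00395% in replicate 1. For Mir212 they allow up to 0.113% and 0.117%. The count that ignores strand was the same as the count on the gene's strand for both genes in both libraries.

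Within 500 kb on either side, 4 other miRNA genes are annotated, and 1 of them was abundant. Mir22, in a separate gene 289969 bases downstream on the same strand, had 12009 CPM in replicate 2 and 2177 CPM in replicate 1. Its log2 ratio of 2.46 was far above the 0.42 of Mir132, so these neighbouring genes did not differ between the libraries by the same amount. Mir6926 had 17 counts in replicate 2 and 8 in replicate 1. Gm47300 and Mir3971 had 0 counts in both libraries, where a count of 0 allows up to 0.511 CPM in replicate 2 and 0.579 CPM in replicate 1.

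Other miRNAs that have been linked to neuronal activity or synaptic plasticity were set beside the pair, as a list of 33 genes that includes both members. The list was written with earlier results of these data known. Of the 31 others, 26 were detected, against 445 of all 2202 genes. Those 26 had a median of 343 CPM against 51.2 CPM over all detected genes. Mir132 was the highest of the list and Mir212 the 13th. Next to Mir132 came Mir22 at 7093 ± 6952 CPM (SD, n = 2). Mir138-1, whose miRNA limits the size of dendritic spines in rat neurons, followed at 5856 ± 1194 CPM. Mir137, a regulator of neuronal maturation, had 4302 ± 1111 CPM, and Mir219a-2, best known for its role in oligodendrocyte differentiation, had 4230 ± 677 CPM. Mir132 was above each of these in both libraries, by the closest margin over Mir22 in replicate 2. In this list 17 of the 31 others share 20 bases with a miRNA gene elsewhere, among them Mir138-1 and Mir219a-2, so their levels and the order are uncertain.

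Between the libraries, the list did not move one way. Of the 27 others tested, 13 were higher and 7 lower in replicate 2 and 7 did not pass the exact binomial test, with a median log2 ratio of 0.19 against 0.16 over all 472 genes tested. Called were thus 74.1% of these 27 genes, against 59.7% of all genes tested. A call depends on the number of counts, and the list lay above the median level. Among genes that averaged 100 or more counts, 21 of 24 list members, the pair included, and 242 of all 291 genes were called. With TMM scaling 10 were higher and 8 lower. The log2 ratio was highest for Mir22, at 2.46, and lowest for Mir9-3, a copy of the brain miRNA miR-9, at -0.67. Mir134, an activity-regulated miRNA that limits spine size in rat neurons and was named after its values were seen, had 576 CPM in replicate 2 and 584 CPM in replicate 1 and did not pass the test. Mir96 had no count in either library.

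**Figure D4:**
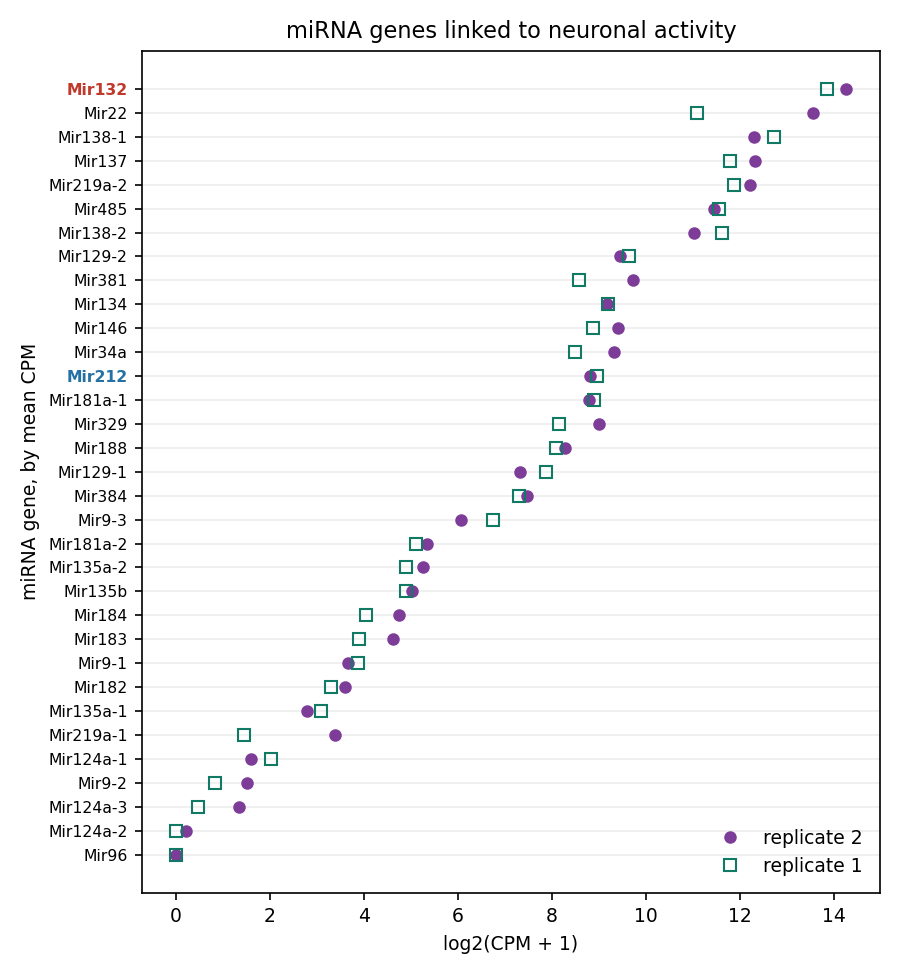
Level as log2(CPM + 1) of the 33 miRNA genes linked to neuronal activity, ordered by mean CPM, with filled circles for replicate 2 and open squares for replicate 1. Mir132 (red label) leads the list and Mir212 (blue label) is the 13th, and the widest gap between the libraries among the upper genes is that of Mir22.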

How the data were processed

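The authors deposited a table of raw counts of reads for each library, 1 row per miRNA gene. The build is mm10 and the annotation GENCODE M21, per the file headers of the accompanying text. No aligner or counter is given in the sources used. The 4 rows that name no gene (63.3% of reads in replicate 2 and 62.7% in replicate 1) were left out. All 2202 identifiers matched the annotation. Counts on the strand of each gene were divided by their total and given as CPM, and a pseudocount of 1 was added before taking log2. With 1 group, edgeR's quasi-likelihood test has no coefficient. The libraries were instead compared by a 2-sided exact binomial test (scipy 1.17.1) for genes that averaged 10 or more counts, with Benjamini-Hochberg adjustment and a threshold of 0.05. This step was tested on simulated counts with Poisson counting error only, which does not cover a further spread between libraries. The scaling of edgeR 4.0.16 (TMM) and DESeq2 1.42.0 (size factors) served as alternatives. Intervals are Clopper-Pearson intervals at 95%, and limits for 0 counts are 3 counts. No molecular identifiers are mentioned, so both cover counting error only. Hairpins were folded with RNAfold 2.7.2.

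The members and lists were chosen with earlier results of these data known. Genes named are the members, the 4 nearest to each in level, miRNA genes within 500 kb, the 5 highest and the extremes in log2 ratio of the activity list, and the pairs next to the members in ratio. Others, such as genes next in rank and the widest pairs, were chosen after their values were seen.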

Additional observations from a re-analysis of the deposited data

How the results depend on the processing

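With 1 group of 2 libraries, no contrast between groups was possible. No paired analysis was possible because the design has a single group. With reads aligned to several places added to the total, the mean level was 7875 CPM for Mir132 and 217 CPM for Mir212. With the column that ignores strand, whose total is smaller, Mir212 had 503 CPM, more than the spread between libraries above its level, and Mir132 had 18261 CPM, which is within it. Each library alone gave 14669 to 19562 CPM for Mir132, 451 to 493 CPM for Mir212 and a ratio of 29.7 to 43.4. The log2 ratios between the libraries kept their direction and their call under TMM, DESeq2 size factors, both filters on low counts and the unstranded column, at 0.23 to 0.43 for Mir132 and -0.31 to -0.12 for Mir212. Genes that differed numbered 242 to 284, and their split moved with the scaling. With TMM 141 were higher and 137 lower in replicate 2, and with DESeq2 size factors 132 and 142, against 186 and 96. In the activity list 18 to 22 members were called, fewest with the unstranded column, where 26 were tested. Mir132 over Mir212 was wider than 83.3% to 91.9% of neighbouring pairs under the alternatives.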
